A study of Mus musculus with 2 samples.

Results

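Malat1, Neat1, Son, Srsf2, Srsf5, Clk1, Clk4 and Rsrp1 are 8 transcripts of the nuclear RNA and splicing machinery, and they were measured in single cells of mouse liver after a fibrosis-inducing toxin. They were chosen by name from earlier results of these data, so their differences between the libraries are given as a description. All 8 were found among 32285 gene rows. The study compared non-parenchymal liver cells (immune, endothelial, stellate and bile duct cells rather than hepatocytes) of Mfap2+/+ (wild-type, WT) and Mfap2-/- (knockout, KO) mice. Mfap2 encodes a glycoprotein of extracellular microfibrils. Every animal had received intraperitoneal carbon tetrachloride (CCl4), a liver toxin used to cause fibrosis, for 8 weeks, and no group without the toxin was analysed here. There was 1 library per genotype. The labels used here give no age, sex, strain background or number of animals per library, so genotype, animal and library preparation cannot be told apart and no test between genotypes was possible.

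Nuclear speckles are bodies in the nucleus that hold splicing factors. Son is one of the proteins that scaffold them, and the long noncoding RNA Malat1 accumulates in them. Neat1, a second long noncoding RNA, builds the neighbouring paraspeckles. Srsf2 and Srsf5 belong to the SR proteins, which bind exons through an RNA recognition domain and recruit the splicing machinery through an arginine and serine rich tail. Clk1 and Clk4 are kinases that phosphorylate such tails and release SR proteins from speckles. Rsrp1 encodes an arginine and serine rich protein whose role is less settled. Because Malat1 stays in the nucleus, single-cell studies often read its share of a barcode's RNA beside the mitochondrial share when they judge whether a barcode held an intact cell.

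In the gene annotation GENCODE M21 on mouse build GRCm38, Malat1 (ENSMUSG00000092341) spans chr19:5795690-5802672 and Neat1 (ENSMUSG00000092274) spans chr19:5824708-5845478, both on the minus strand and both annotated as long intergenic noncoding RNAs. Son lies on chromosome 16, Srsf2 and Clk4 on chromosome 11, Srsf5 on chromosome 12 and Clk1 on chromosome 1. Rsrp1 (ENSMUSG00000037266) spans chr4:134923592-134927671 on the plus strand, 6.09 Mb from the start of Mfap2 on the same chromosome. All 6 coding members carry at least 1 annotated transcript with a retained intron, with 7 each for Clk1 and Clk4, while 41.5% of 21951 protein-coding genes carry any. Srsf2 lies wholly within Mettl23 on the opposite strand and also overlaps Mfsd11, Son overlaps Donson, and Clk4 overlaps BC049762, in each case on opposite strands. The strand rule of the counting is not given in the sources used here, so UMIs of such partners may not be separable.

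The libraries were made with a kit that primes on runs of A and reads the 3′ end of RNAs. The full-length Malat1 transcript in GENCODE (Malat1-201, 6983 bases) holds 1 run of 8 or more A, and its 12 bases begin at position 6674, with 298 bases between the end of the run and the annotated end. It is shown because it is a stretch inside the RNA on which such a primer can anneal. The run is in capitals.

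Malat1-201 around the A run: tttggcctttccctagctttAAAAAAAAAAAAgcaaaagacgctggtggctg

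The full-length Neat1 transcript (Neat1-201, 20771 bases) holds no run of 8 or more A.

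RefSeq promoters on build GRCm38.p6, from 250 bases before to 50 bases after the gene start, were at hand for 6 of the 8 members. The core TGACG of the cAMP response element, a site bound by CREB and ATF factors, was searched on both strands, and it was chosen after the sequences had been seen. It occurred in 6 of the 6 promoters, with 3 matches for Malat1 and Clk4, 2 for Son, Srsf5 and Rsrp1 and 1 for Srsf2. Of 32851 promoters of the same length, 20.8% held the core at least once, 5.01% at least 2 times and 1.03% at least 3 times. The core contains a CpG, and all 6 promoters held 10 or more CpG pairs, against a median of 7. Among the 14281 promoters with 10 or more, 33.1% held the core and 9.88% held it at least 2 times. In Clk4 the first pair of matches overlapped as the full palindrome TGACGTCA, which 1.79% of promoters held. The core of the heat shock element, GAANNTTC, was in 0 of the 6 promoters and in 7.86% of all. Of the 2 other motifs searched, CCAAT occurred in the promoters of Son, Srsf2 and Rsrp1 and in 37.4% of all, and TATAAA in that of Srsf2 and in 13.6% of all. Matches describe letters only.

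The promoters of the noncoding RNA with the most UMIs, of the kinase with the full palindrome and of the transcript with the largest difference between libraries are printed 5′ to 3′ on the strand of the gene, with TGACG or its reverse complement CGTCA in capitals.

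Malat1, chr19:5802623-5802922, minus strand: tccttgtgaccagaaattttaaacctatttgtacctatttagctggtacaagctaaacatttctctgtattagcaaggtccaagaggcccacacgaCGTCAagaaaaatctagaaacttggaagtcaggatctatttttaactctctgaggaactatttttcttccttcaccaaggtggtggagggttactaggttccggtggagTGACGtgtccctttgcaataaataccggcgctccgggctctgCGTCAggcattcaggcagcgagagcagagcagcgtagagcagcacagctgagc

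Clk4, chr11:51262864-51263163, plus strand: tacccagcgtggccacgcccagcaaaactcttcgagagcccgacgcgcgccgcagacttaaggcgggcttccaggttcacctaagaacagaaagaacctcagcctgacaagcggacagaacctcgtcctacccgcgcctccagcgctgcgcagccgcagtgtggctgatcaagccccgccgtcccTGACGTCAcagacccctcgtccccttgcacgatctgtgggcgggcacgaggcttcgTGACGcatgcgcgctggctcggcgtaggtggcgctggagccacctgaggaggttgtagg

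Rsrp1, chr4:134923375-134923674, plus strand: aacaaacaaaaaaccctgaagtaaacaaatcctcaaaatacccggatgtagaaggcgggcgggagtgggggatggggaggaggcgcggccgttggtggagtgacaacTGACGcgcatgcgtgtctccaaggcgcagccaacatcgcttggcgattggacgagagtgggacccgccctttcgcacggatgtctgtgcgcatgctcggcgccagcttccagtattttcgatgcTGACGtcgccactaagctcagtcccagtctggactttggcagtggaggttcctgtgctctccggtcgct

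Each library is a table of unique molecular identifiers (UMIs), tags that count single RNA molecules. After filtering, 11370 WT cells with a median of 4932.5 UMIs and 12723 KO cells with a median of 6587 UMIs remained. Mfap2, the targeted gene, had 257 UMIs in the WT library and 4 in the KO library, which are 3.13 and 0.0339 counts per 1000000 UMIs of the library (CPM, the scale of every level given here). The libraries also differed in general RNA content: ribosomal protein genes took a median of 11.8% of a WT cell's UMIs and 8.72% of a KO cell's, and the median mitochondrial share was 2.44% and 2.20%. A list of 10 heat-shock genes was higher in the KO library in 10 of 10, with a median log2 ratio of 0.98. The libraries had 40 cell barcodes in common.

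Cells were placed in classes by marker genes, and a class took a cell with at least 3 of its markers and at least 2 more than of any other class. Of 16 classes, 10 held at least 50 cells in each library, and 34.9% of WT and 33.3% of KO cells had no class. Cells at the edge of the gate, with exactly 3 markers or a lead of exactly 2, made up 28.1% of the gated WT cells and 29.5% of the gated KO cells. Macrophage genes were the most frequent markers of another class, with medians of 2 to 5 per cell in the 9 others of these 10 classes, and 72.6% of WT and 74.1% of KO cells had 3 or more markers of a second class. The part of such mixed RNA in the values below was not tested.

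Over all kept cells, Malat1, Neat1 and Rsrp1 were higher in the KO library, by log2 ratios of 0.34, 0.62 and 1.18, and the other 5 members lay between -0.05 and 0.16. UMIs were summed over cells and scaled to 1e6, and the 95% intervals of levels and ratios cover counting error only. Rsrp1 was the 1 member past 2-fold. Of 19728 genes with at least 20 UMIs in both libraries together, 6.37% were at least 2-fold higher and 1.87% at least 2-fold lower in the KO library. The median log2 ratio was 0.16 for the 8 members and 0.14 for all genes. Scaling by the median of ratios removes that shift of 0.14 and gives log2 ratios of 0.20 for Malat1, 0.47 for Neat1 and 1.03 for Rsrp1.

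**Figure D1:**
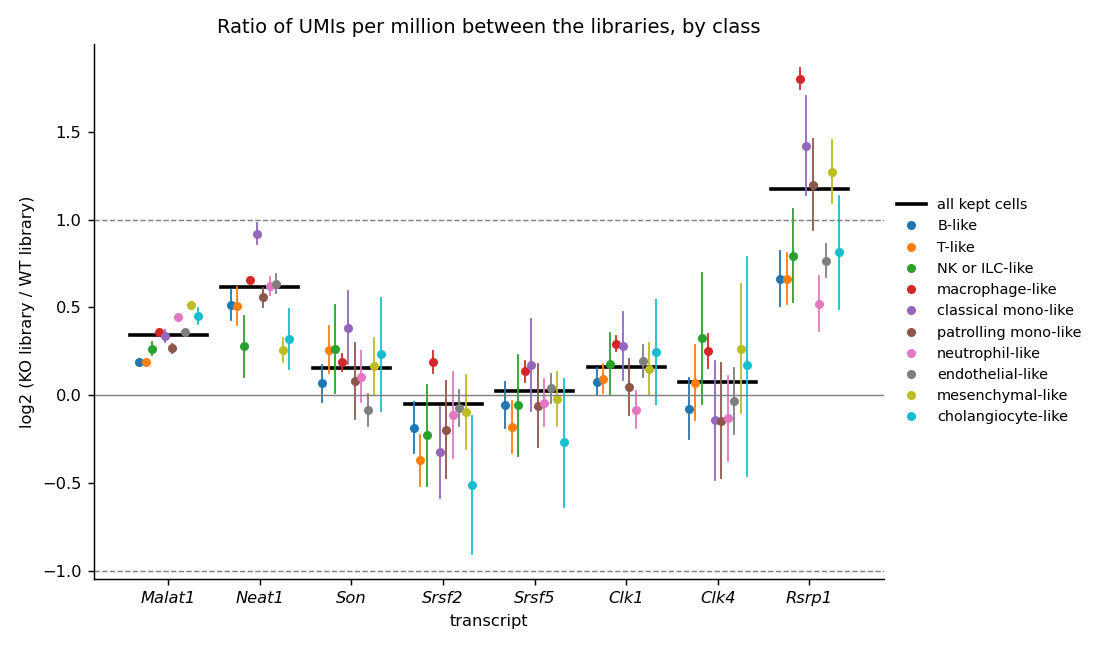
Log2 ratio of CPM, KO library over WT library, for the 8 transcripts (horizontal axis) in 10 marker-gated classes (points, with 95% counting intervals) and over all kept cells (black bars). Dashed lines mark 2-fold. All points of Malat1, Neat1 and Rsrp1 lie above 0, and 4 points of Rsrp1 lie past 2-fold.

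Malat1 took the most UMIs of the 8. It stood at 12653 CPM in the WT library and 16018 in the KO library, a ratio of 1.27. The RNA was found in nearly every cell: after each cell was thinned to 1000 UMIs, 98.9% of WT and 99.6% of KO cells held at least 1 UMI. Erythroid-like cells, which should hold little nuclear RNA, had a UMI in 80.2% of the 81 WT cells deep enough to thin (median depth 2036 UMIs) and in 96.2% of 26 KO cells (1934.5 UMIs), so a share of cells with a Malat1 UMI is not read here as expression. Their level was 5631 CPM in WT and 5458 in KO, below every one of the 10 classes.

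Classical monocyte-like cells had the lowest Malat1 of the 10 classes, 6861 CPM in WT and 8668 in KO. NK or innate lymphoid-like cells came next at 8941 and 10738, and T-like cells at 10812 and 12304. Cholangiocyte-like cells stood at 10981 and 15006, and neutrophil-like cells at 12236 and 16636. The WT values of T-like and cholangiocyte-like cells did not differ beyond counting error, and they were the only such neighbours in the order of either library. Endothelial-like cells held 12731 and 16358, patrolling monocyte-like cells 13065 and 15727, and macrophage-like cells 13807 and 17692. Mesenchymal-like cells held 15200.0 and 21669.5. B-like cells held 15697 and 17898, the highest level in WT, while mesenchymal-like cells were the highest in KO. In all 10 classes the KO value was the higher one and the counting intervals did not overlap.

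The log2 ratio of Malat1 ranged from 0.19 in T-like to 0.51 in mesenchymal-like cells. None reached 2-fold, while the share of genes at least 2-fold higher was 5.47% in B-like, 5.2% in T-like, 5.27% in NK or innate lymphoid-like, 6.75% in macrophage-like and 4.59% in classical monocyte-like cells. It was 6.12% in patrolling monocyte-like, 7.21% in neutrophil-like, 5.14% in endothelial-like, 6.54% in mesenchymal-like and 6.96% in cholangiocyte-like cells. In cholangiocyte-like cells the direction turned to -0.23 when the mean over cells replaced the sum.

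Neat1 was higher in the myeloid than in the lymphoid classes. Patrolling monocyte-like cells held 2719.9 CPM in WT and 4003 in KO, the highest of the 10 classes in both. Classical monocyte-like cells held 1971 and 3728, macrophage-like cells 1965 and 3098, and neutrophil-like cells 1429 and 2197. T-like cells had the lowest level, 334 and 475, with NK or innate lymphoid-like cells at 431 and 523 and B-like cells at 431 and 616. Between these groups lay endothelial-like cells at 624 and 969.9, cholangiocyte-like cells at 907 and 1133 and mesenchymal-like cells at 1205 and 1440.4. Erythroid-like cells held 639 in WT, above T-like, NK or innate lymphoid-like, B-like and endothelial-like cells, and 331 in KO, below all 10 classes. The highest class was 8.15 times the lowest in WT and 8.43 times in KO, the widest range of the 8 members, against 2.29 times in WT for Malat1.

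All 10 classes had the higher Neat1 value in the KO library, with log2 ratios from 0.26 in mesenchymal-like to 0.92 in classical monocyte-like cells. The cholangiocyte-like value of 0.32 rests on few cells, since 51.5% of the Neat1 UMIs in KO lay in 5 cells, and it was -0.04 without the 5 richest cells of each library. After thinning, 54.9% of WT and 64.7% of KO cells had a Neat1 UMI, against 25.9% of the WT and 26.9% of the KO erythroid-like cells. In 3 of 10 WT and 4 of 10 KO classes the share was at or below the upper bound of the erythroid-like interval, 36.9% and 47.8%.

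**Figure D2:**
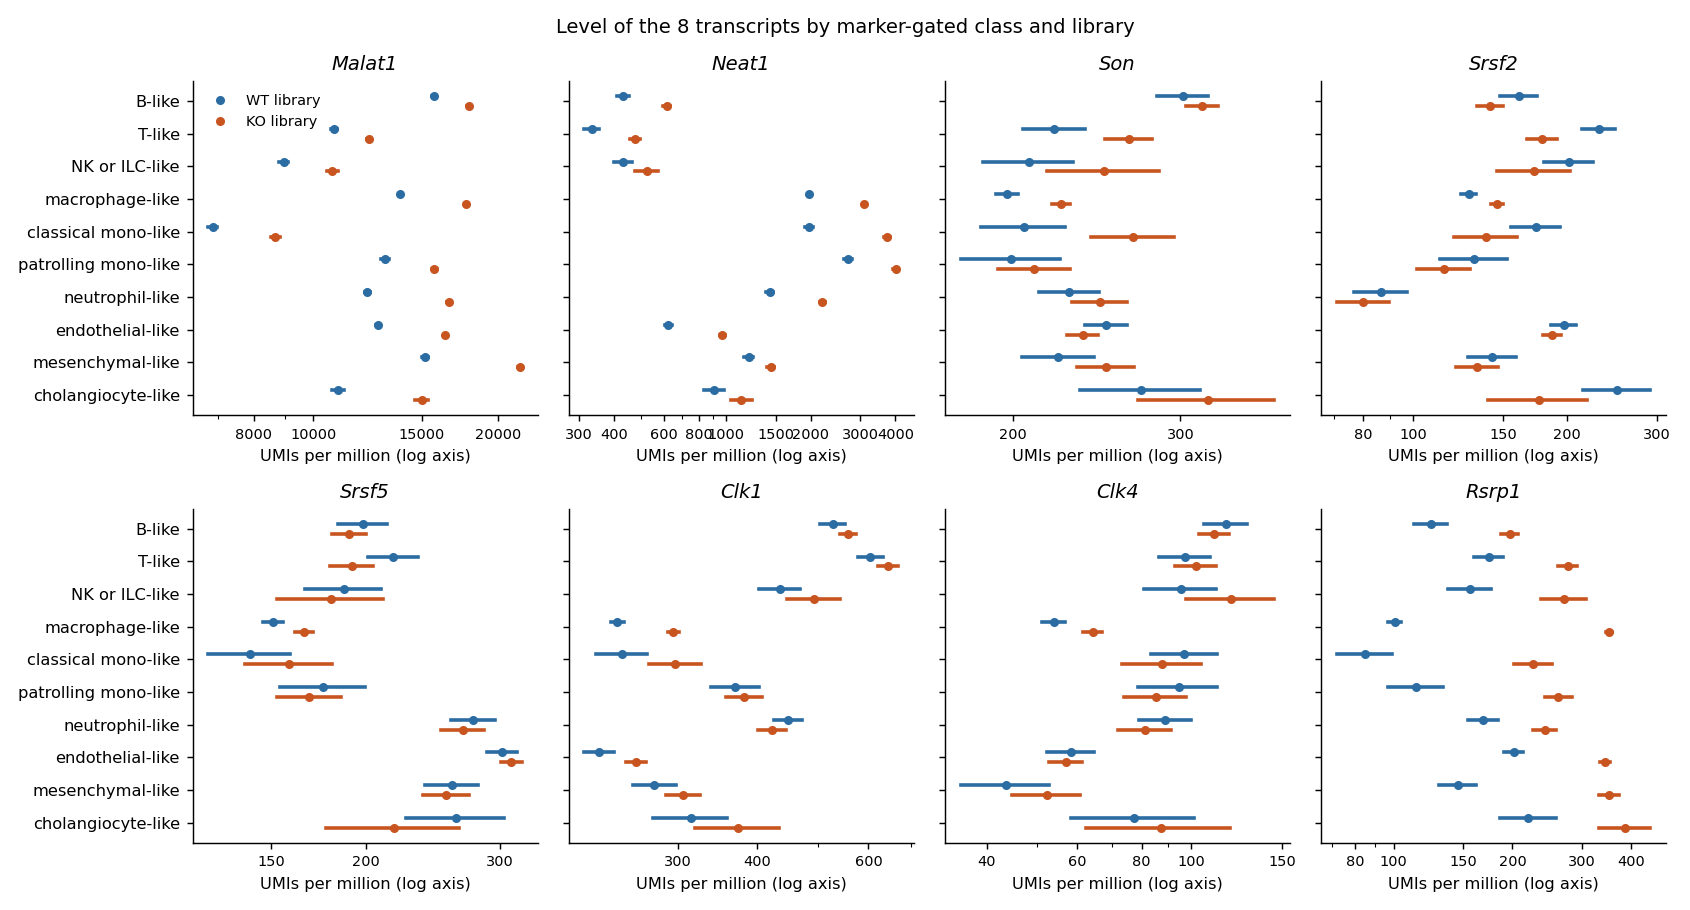
CPM (log axes) of each transcript in the 10 marker-gated classes, WT library in blue and KO library in orange, with 95% counting intervals. Neat1 runs from 334 in T-like to 4003 in patrolling monocyte-like cells, while Son stays between 197 and 320.4.

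Son, the speckle scaffold, had the narrowest range over classes. It stood at 224 CPM in WT and 249.6 in KO over all cells. In WT it ran from 197 in macrophage-like to 302 in B-like cells, and 8 of 9 neighbours in that order did not differ beyond counting error. The KO library was higher in 5 of 10 classes by the counting interval, and in endothelial-like cells the log2 ratio was -0.08 with an interval from -0.17 to 0.01. Over all cells the log2 ratio of 0.16 became 0.01 under the median of ratios.

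Srsf2 and Srsf5 differed from each other in where they were high. Srsf2 was lowest in neutrophil-like cells, at 86.5 CPM in WT and 80.0 in KO. WT erythroid-like cells held 82.5, from 20 UMIs, and the 31 KO erythroid-like cells held 0 UMIs. The highest levels of Srsf2 were 251 in WT cholangiocyte-like and 187 in KO endothelial-like cells. Srsf5 was highest in endothelial-like cells, at 302 and 311, and lowest in classical monocyte-like cells, at 141 and 158. Neutrophil-like cells, lowest for Srsf2, had the second highest Srsf5 levels, at 276 and 268. Over the 20 sums of 10 classes in 2 libraries the pair had a Pearson correlation of 0.01 on the log2 scale.

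Between the libraries both SR transcripts were close to level over all cells. Srsf2 stood at 164 in WT and 159 in KO, a log2 ratio of -0.05 that was 0.01 after thinning. Within strata of depth and mitochondrial share the log2 ratio of Srsf2 was 0.16 with equal weights and 0.02 with strata weighted by WT cells. Srsf5 stood at 195 and 199, with an interval of the log2 ratio that includes 0. Within classes Srsf2 was lower in KO in 4 of 10: B-like (161 and 142), T-like (231 and 179), classical monocyte-like (174 and 139) and cholangiocyte-like cells (251 and 177). In macrophage-like cells Srsf2 was higher, 128 in WT and 146 in KO. Of the cholangiocyte-like Srsf2 UMIs, 28.6% in WT and 33.3% in KO lay in 5 cells. Srsf5 was lower in T-like cells (217 and 192) and higher in macrophage-like cells (151 and 166), and its interval included 0 in the other 8 classes. The macrophage-like ratio of Srsf5 was -0.01 under the median of ratios.

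Clk1 and Clk4 were both low in endothelial-like, macrophage-like and mesenchymal-like cells, and high in lymphoid cells but not in these alone. Neutrophil-like cells held 448 CPM of Clk1 in WT and 423 in KO, against 435 and 492 in NK or innate lymphoid-like cells. Clk4 in WT was 96.9 in classical monocyte-like, 94.4 in patrolling monocyte-like and 89.0 in neutrophil-like cells. The WT Clk4 levels of NK or innate lymphoid-like and T-like cells were 95.4 and 97.1. Clk1 was highest in T-like cells, at 604 CPM in WT and 645 in KO, followed by B-like cells at 527 and 557. It was lowest in endothelial-like cells, at 225 and 258. Clk4 was highest in WT B-like cells at 117 and in KO NK or innate lymphoid-like cells at 119, and lowest in mesenchymal-like cells at 43.6 and 52.3. The Pearson correlation of the kinases over the 20 sums was 0.75, the highest of the 28 pairs of members, and these points share libraries and depth. Neighbours in the order of Clk4 differed beyond counting error in 2 of 9 cases in each library.

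The kinases differed little between libraries. Clk1 stood at 317 in WT and 355 in KO over all cells, and it was higher in KO in 5 of 10 classes, most in macrophage-like cells (241 and 295, log2 ratio 0.29). Under the median of ratios the Clk1 log2 ratio went from 0.16 to 0.02 over all cells and from 0.09 to -0.01 in T-like cells. Clk4 stood at 71.9 and 75.7 over all cells, a log2 ratio of 0.07 that turned to -0.07 under the median of ratios and to -0.01 after thinning. Only its macrophage-like interval, from 0.16 to 0.35, lay off 0.

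Rsrp1 was the member that differed most between the libraries, at 129 CPM in WT and 291 in KO, a ratio of 2.26. Macrophage-like cells held 101 in WT and 351 in KO, classical monocyte-like cells 84.5 and 226, and patrolling monocyte-like cells 114 and 262. In mesenchymal-like cells the values were 145 and 351. These 4 classes were past 2-fold, and no other pair of member and class among the 80 was. Of all genes in a class, 4.59% to 7.21% were at least 2-fold higher in KO, and the 4 of 80 is to be read against that.

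The other 6 classes had smaller Rsrp1 ratios, and each of them had a WT level above those of the 3 myeloid classes past 2-fold. This did not hold for mesenchymal-like cells, also past 2-fold, whose WT level of 145 lay above the B-like one. B-like cells held 124 in WT and 197 in KO, and T-like cells 174 and 276. NK or innate lymphoid-like cells held 156 and 270.2, and neutrophil-like cells 169 and 242. Endothelial-like cells held 201 and 343, and cholangiocyte-like cells 219.6 and 386. The log2 ratio ran from 0.52 in neutrophil-like to 1.80 in macrophage-like cells, with all 10 intervals above 0. Its place among the genes of a class ran from the 76.9th percentile in neutrophil-like to the 98.6th in macrophage-like cells. Those genes had at least 20 UMIs in the class, a floor far below the 546 WT and 852 KO Rsrp1 UMIs of neutrophil-like cells.

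The levels of the classes lay closer together in KO than in WT. The highest class was 2.60 times the lowest in WT and 1.96 times in KO. After thinning, 10.8% of WT macrophage-like cells (median depth of the thinned cells 10289 UMIs) and 29.96% of KO macrophage-like cells (12368) had an Rsrp1 UMI. The WT share was no higher than the 11.1% of the 81 WT erythroid-like cells (exact interval 5.21% to 20.05%, median depth 2036 UMIs). The same held for both monocyte-like classes, so these WT shares are not read here as expression. In 9 of the 10 WT classes the share was at or below the upper bound of that interval. The erythroid-like cells were few and shallower than the macrophage-like cells, so the shares cannot tell background from expression. Rsrp1 stood at 128 CPM in WT erythroid-like cells, from 31 UMIs (interval 86.9 to 182), above the WT macrophage-like level. The KO erythroid-like share was 3.85% of 26 cells (median depth 1934.5 UMIs), and 2 of the 10 KO classes were at or below its upper bound of 19.6%. How much of the WT level is free RNA, and how far that moves the Rsrp1 ratios, was not tested.

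Because Rsrp1 lies near the targeted locus, the genes around Mfap2 were set beside it. Of 185 genes within 10 Mb with at least 500 UMIs, Rsrp1 included and Mfap2 left out, 3 (1.62%) were past 2-fold in either direction, Rsrp1 among them, against 291 of 12571 elsewhere (2.31%). The median log2 ratio was -0.01 near the locus and 0.10 elsewhere.

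Over all cells Malat1 was lower in the deepest than in the shallowest barcodes. Its Spearman correlation with UMIs per barcode was -0.20 in WT and -0.19 in KO. Within classes that correlation ran from -0.51 in KO T-like to 0.64 in KO cholangiocyte-like cells. In B-like cells it was 0.03 in WT and 0.06 in KO. In cells with 500 to under 1000 UMIs Malat1 took 23133 CPM in WT and 23534 in KO. In cells with at least 16000 UMIs it took 11495.5 and 14885. The libraries were level in the shallowest cells, with a log2 ratio of 0.02, and differed by 0.34 to 0.44 in each of the 5 deeper strata. Rsrp1 also was higher in shallow cells in WT, 257 against 117, while its ratio was 0.62 in the shallowest and 1.35 in the deepest cells. Neat1 ran the other way, with 1094 CPM in the shallowest and 1446 in the deepest WT cells, and 1704 and 2137.5 in KO. Of the deepest cells 444 of 1041 in WT and 752 of 1873 in KO were macrophage-like, a class with high Neat1. Within macrophage-like WT cells Neat1 was 1163 in the shallowest stratum, 2296 in cells with 2000 to under 4000 UMIs and 1947 in the deepest. The Malat1 ratio in that class was 0.01 and -0.05 in the 2 strata under 2000 UMIs and 0.37 to 0.55 above.

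Over all cells Malat1 and Rsrp1 were higher in cells with over 10% to 20% mitochondrial UMIs than in those with up to 2.5%. The Spearman correlation with that share was 0.18 in WT and 0.14 in KO for Malat1, and -0.12 and -0.18 for Neat1. Within classes the Malat1 value ran from -0.27 in KO T-like to 0.40 in WT endothelial-like cells. Malat1 stood at 12443 CPM in WT cells with up to 2.5% mitochondrial UMIs and at 27589.5 in those with over 10% to 20%, and at 15722 and 26385 in KO. Over all cells the log2 ratio was 0.34 in the first of these strata and -0.06 in the second. Within 5 classes 14 combinations of class and stratum had at least 50 cells in each library. The Malat1 interval lay above 0 in 14 of these 14, with ratios from 0.10 to 0.50. Rsrp1 went from 119.5 to 259 in WT and from 273 to 314 in KO, with ratios of 1.19 and 0.28. In the 137 WT and 131 KO endothelial-like cells with over 10% it was higher in WT, at 502 and 258. In macrophage-like cells the Rsrp1 ratio was between 1.14 and 1.92 in each of 4 strata. Over the 14 combinations of class and stratum the Rsrp1 interval lay above 0 in 12 and below 0 in 1. With depth and mitochondrial share held together in 20 strata of equal weight, the log2 ratio was 0.28 for Malat1, 0.42 for Neat1 and 0.83 for Rsrp1. It was 0.16 for Srsf2, 0.14 for Srsf5 and -0.01 for Clk4, and the median of the 8 was 0.19.

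**Figure D3:**
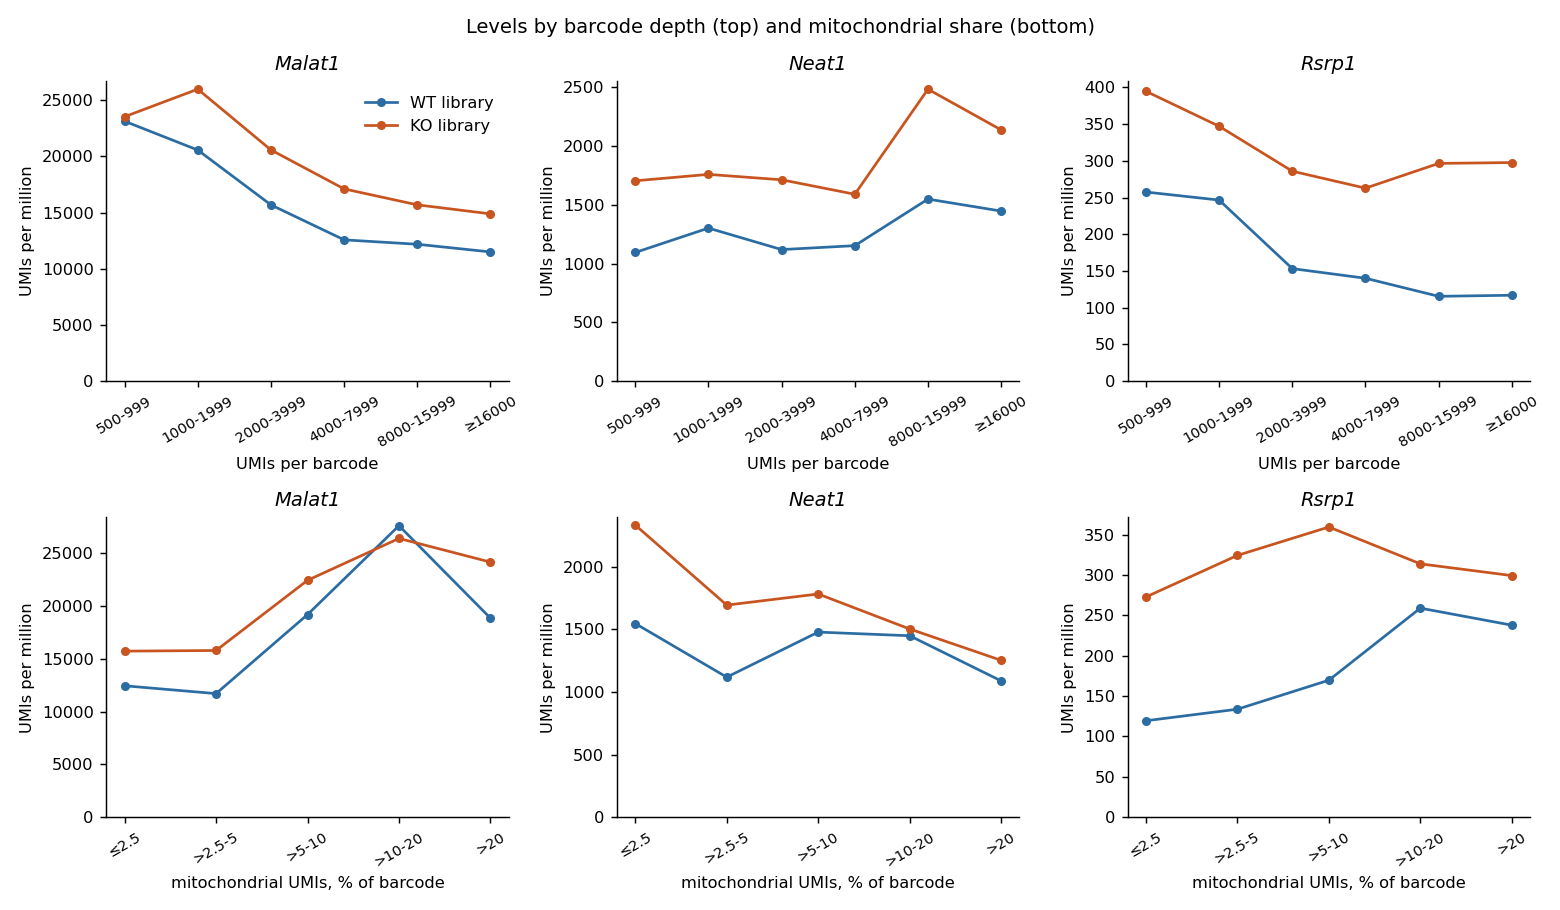
CPM of Malat1, Neat1 and Rsrp1 in the WT (blue) and KO (orange) library, by UMIs per barcode (top) and by the mitochondrial share of a barcode (bottom; the last point, over 20%, holds barcodes that the cell filter removed). Malat1 starts at 23133 in WT and 23534 in KO and the KO line lies above the WT line at greater depth.

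Just 98 WT cells (0.862%) and 58 KO cells (0.456%) had no Malat1 UMI. Their median depth was 763.5 and 774 UMIs, against 4985.5 and 6613 in the cells with one. Of them, 49 and 32 had no class, 13 and 1 were erythroid-like, and 7 and 4 were hepatocyte-like. Hepatocyte-like cells, few in this preparation, had low Malat1 in general, 1299 CPM in 18 WT cells and 4951 in 58 KO cells.

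The ribosomal protein share, whose median was lower in KO in each of the 10 classes, ran against Malat1. Per cell the Spearman correlation of Malat1 with that share was -0.35 over 11370 WT cells and -0.44 over 12723 KO cells, where both are shares of the same total. When cells were compared within ranges of that share, the Malat1 ratio was small or below 0 in macrophage-like, endothelial-like, B-like and T-like cells in most ranges, and it was 0.45 and 0.30 in the 2 ranges of neutrophil-like cells with enough cells. In macrophage-like cells it was 0.18, 0.10 and 0.13 in the ranges up to 5%, over 5% to 10% and over 10% to 15%, and -0.14 above 15%. In endothelial-like cells with over 5% to 10% Malat1 stood at 16308 in WT and 15667 in KO, and in T-like cells with over 15% at 9666 and 9265. Over 13 combinations of class and range with at least 50 cells in each library, the Malat1 interval lay above 0 in 7 and below 0 in 4. The Rsrp1 interval lay above 0 in 13 of 13, with ratios from 0.26 to 1.65, and that of Neat1 in 12 of 13. The part of the ribosomal share in the difference of Malat1 was otherwise not tested.

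In macrophage-like cells heat-shock genes moved with Neat1. The 10 heat-shock genes had a median log2 ratio of 1.28 in macrophage-like and 0.49 in cholangiocyte-like cells, and Bag3, a co-chaperone, reached 2.52 in macrophage-like cells. Cells of each class from both libraries were divided into 3 equal groups by their summed heat-shock CPM. In macrophage-like cells of the low group Neat1 stood at 1734 in WT and 1641 in KO, in the middle group at 2112 and 2651, and in the high group at 2556 and 3646. In this class Neat1 was higher at more heat-shock RNA in both libraries, and the log2 ratio went from -0.08 to 0.33 and 0.51. Of the 2636 WT cells 262 were in the high group, and of the 2707 KO cells 1519 were.

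The level of Neat1 did not rise with heat-shock RNA at every step in other classes. WT B-like cells held 442 CPM in the low and 416 in the middle group, while WT endothelial-like cells rose from 410 to 645 and 1062. The Neat1 ratio went both ways in other classes. In T-like cells the ratio was 0.55 in the low and 0.22 in the high group, and in neutrophil-like cells 0.58 and 0.32. In B-like cells it was 0.31, 0.54 and 0.55 from low to high, and in endothelial-like cells 0.30, 0.20 and 0.14. Rsrp1 in macrophage-like cells stood at 102 in WT and 379 in KO in the low group, 98.3 and 349.7 in the middle group, and 104 and 345 in the high group, with log2 ratios of 1.89, 1.83 and 1.73. Its ratio went from 0.55 to 0.95 and 1.29 in endothelial-like cells and from 0.38 to 0.43 and 0.84 in B-like cells. Malat1 had ratios of 0.23, 0.21 and 0.28 in the macrophage-like groups. The part of heat-shock state in the differences was otherwise not tested. Immediate early genes, which cell isolation can induce, had a median log2 ratio of 0.08 over all cells, with 6 of 10 above 0, near the 61.6% of all genes.

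**Figure D4:**
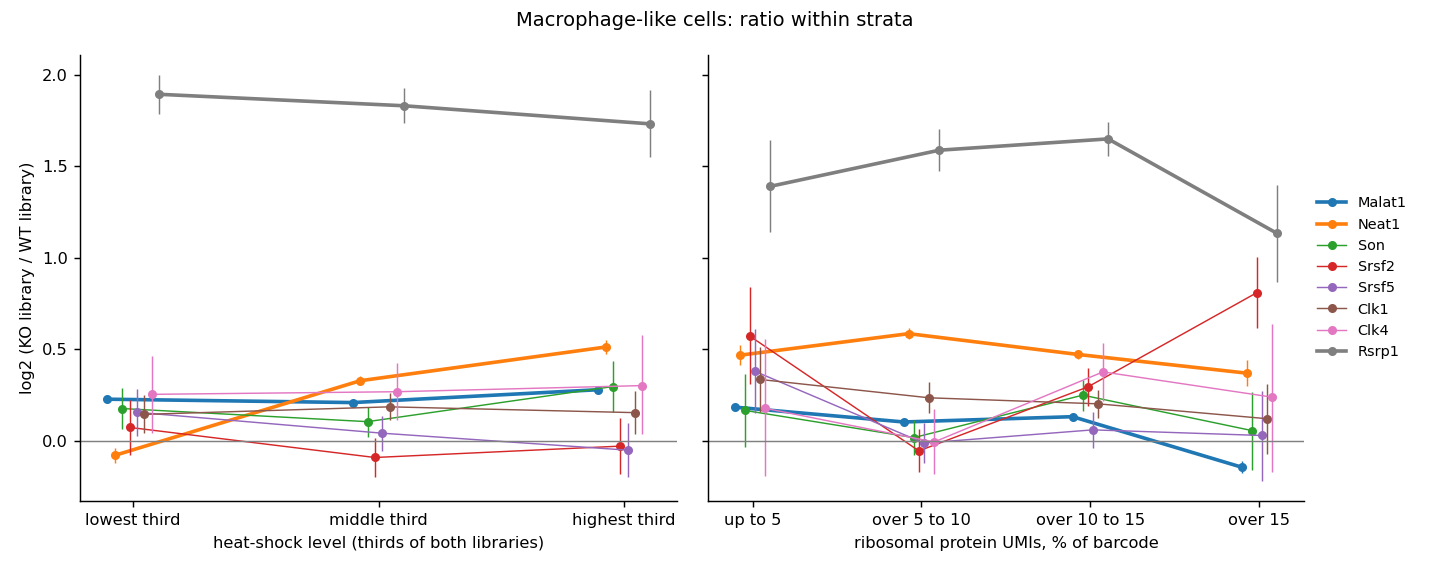
Log2 ratio of CPM (UMIs scaled to 1e6), KO library over WT library, for the 8 transcripts in macrophage-like cells, within 3 groups of heat-shock level (left) and 4 ranges of the ribosomal protein share (right), with 95% counting intervals. Rsrp1 stays between 1.13 and 1.89, Neat1 goes from -0.08 to 0.51 with heat-shock level, and Malat1 ends at -0.14 in the highest ribosomal range.

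Other genes of the same machinery were set beside the members in 7 lists. Of 73 genes 72 had at least 20 UMIs, 0 were past 2-fold in either direction, 52 had a ratio above 0 and 20 below it, and their median was 0.22. Of all 19728 genes 61.6% were above 0, with a median of 0.14, and each list is to be read against these. The speckle and RS-domain factors had 15 of 16 above 0, a median of 0.28 and Luc7l3, a U1-associated factor, highest at 0.51. The kinases of SR proteins other than Clk1 and Clk4 had 5 of 6 above 0 and a median of 0.38, led by Dyrk1a at 0.46, with Clk3 at -0.04. Other SR and SR-related factors had 10 of 13 above 0 and a median of 0.09, from Srsf12 at -0.50 to Srsf4 at 0.43.

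Paraspeckle proteins, the partners of Neat1, had 6 of 9 above 0 and a median of 0.13, from Nudt21 at -0.27 to Pspc1 at 0.44. The hnRNP proteins and helicases had 7 of 8 above 0 and a median of 0.26, from Hnrnpa1 at -0.14 to Hnrnpa2b1 at 0.56. In the core spliceosome 5 of 12 were above 0, the median was -0.01, and the small Sm protein gene Snrpb was lowest at -0.38 while Sf3b1 was highest at 0.43. Other noncoding RNAs were split 4 to 4, with Gas5, whose introns hold small nucleolar RNAs, at -0.40 and Kcnq1ot1, an antisense RNA that acts in imprinting, at 0.75. Rsrp1 at 1.18 lay above all 72, but the members were chosen with earlier results of these data known, so this place is a description only.

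**Figure D5:**
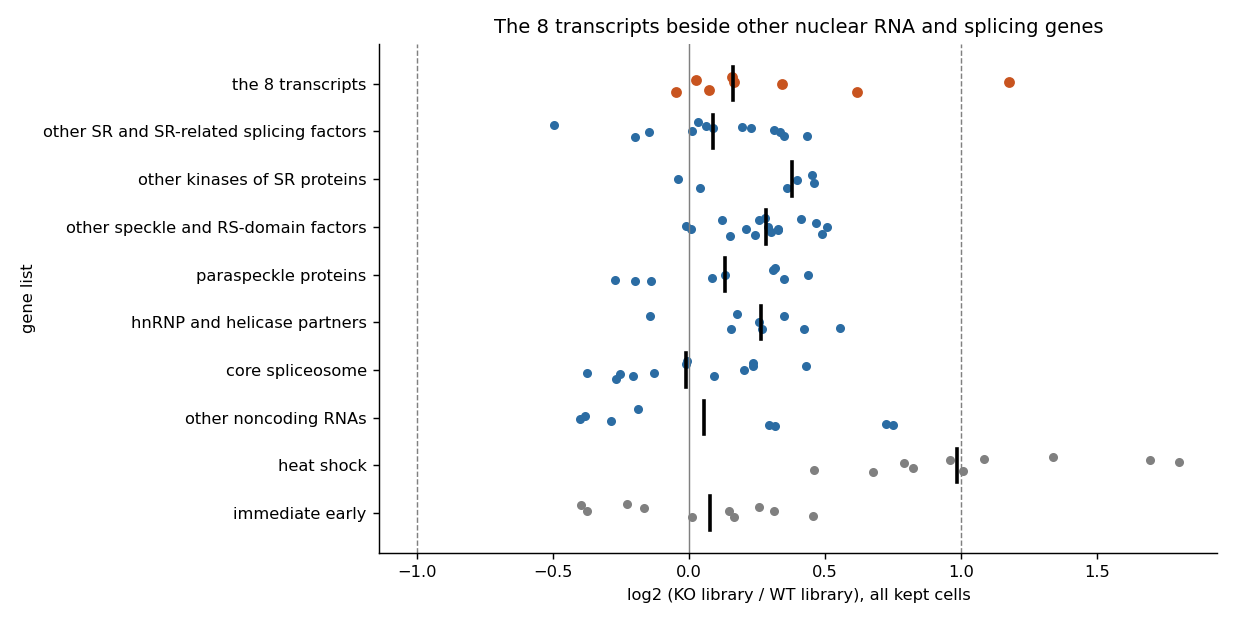
Log2 ratio over all kept cells for the 8 transcripts (orange), for 7 lists of other nuclear RNA and splicing genes (blue) and for heat-shock and immediate early genes (grey). Each point is a gene, black bars are list medians and dashed lines mark 2-fold. None of the blue points is past 2-fold, and 5 of the 10 heat-shock genes are.

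Gene length ran through these ratios. Protein-coding genes in the shortest quartile by genomic span (up to 10.1 kb) had a median log2 ratio of -0.20, and the next quartiles had 0.00, 0.16 and 0.36. Srsf2 (3.19 kb), Srsf5 (5.004 kb) and Rsrp1 (4.08 kb) belong to the shortest quartile, where 65.2%, 69.9% and 97.1% of genes had a lower ratio. Clk1 (13.9 kb) and Clk4 (20.04 kb) were in the second quartile, above 66.6% and 57.8% of its genes. Son (31.7 kb), at 0.16, sat at the median of the third. Malat1 and Neat1 are noncoding and were placed by their span of 6.98 kb and 20.8 kb, above 84.7% and 90.4% of the coding genes of those quartiles. Genes with and without an annotated retained-intron transcript had medians of 0.11 and 0.09. How intronic reads were counted is not given in the sources used here.

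The genes most like each member were sought by the Pearson correlation of log2(CPM + 1) over the 20 class and library sums, among 6674 genes with a mean of at least 20 CPM. The points share libraries, depth and mixed RNA. Neat1 had the closest match, with Ell at 0.96, Mospd2 and Nfe2l2 at 0.93. Clk1 was closest to Ccm2 at 0.95. Srsf2 was closest to Rabggtb, Set and Polr2h, at 0.91, 0.91 and 0.90. Son was closest to Cstf3 at 0.90 and Srsf5 to Numb at 0.89. Malat1 and Rsrp1 had the weakest matches, Ppp1r10 at 0.84 and Cmss1 at 0.81. No member was among the 3 closest genes of another.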

How the data were processed

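The deposited matrices hold raw UMI counts per gene and barcode, for which the file headers name Cell Ranger 7.0.1, while the submitters' processing notes list Cell Ranger 3.1.0, Seurat and build mm10. Intron and strand handling are not given in the sources used here. The library kit was Chromium 3′ v3, per the labels' protocols. The files held 11783 WT and 12872 KO barcodes with 82499307 and 118226367 UMIs and at least 500 UMIs each. Barcodes under 200 genes or over 20% mitochondrial UMIs were dropped, 413 in WT and 149 in KO. No doublet caller was run, and cells with markers of several classes had no class unless one led by 2.

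UMIs were summed per class and library and scaled to 1e6 (CPM). Intervals at 95% are exact Poisson, conditional exact for ratios and Clopper-Pearson for shares, and were tested on simulated data. With 1 library per genotype no test was made. The members, markers, lists and motifs were chosen with earlier results of these data known. The strata of ribosomal and heat-shock genes, and the genes around Mfap2, were added after seeing the data. Besides the members, the text names the 3 genes most correlated with a member (the first of them for most) and the genes with the highest and lowest ratio of a list. The match of Clk4 is not reported here. Of 32285 gene identifiers, 99.6% were found in GENCODE M21. Python 3.11.15, numpy 2.4.6, scipy 1.17.1, pandas 2.3.3 and matplotlib 3.10.9 were used. Thinning left out 1058 WT and 735 KO cells under 1000 UMIs.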

Additional observations from a re-analysis of the deposited data

Results flagged for a closer look

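Srsf2 had ratios of opposite sign between cell classes. In macrophage-like cells the log2 ratio of the KO to the WT library was 0.187, while it was -0.184 in B-like, -0.370 in T-like, -0.324 in classical monocyte-like and -0.509 in cholangiocyte-like cells. Each counting interval lay on its own side of 0, but these intervals do not cover spread between cells. The 5 richest cells held 28.6% of WT and 33.3% of KO Srsf2 UMIs in cholangiocyte-like cells, and 19.5% and 25.9% in classical monocyte-like cells. The shares were 9.43% and 5.95% in T-like, 3.54% and 3.24% in B-like, and 4.48% and 4.14% in macrophage-like cells. Srsf5 had 0.136 in macrophage-like and -0.182 in T-like cells. With 1 library per genotype the difference between classes was not tested. The macrophage-like ratio of Srsf2 was 0.57, -0.06, 0.29 and 0.81 in cells with up to 5%, over 5% to 10%, over 10% to 15% and over 15% ribosomal protein UMIs. Within the low, middle and high heat-shock groups it was 0.07, -0.09 and -0.03, with 3 of 3 intervals including 0, and under the median of ratios it was 0.04.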

How the results depend on the processing

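No paired analysis was possible because there was 1 library per genotype, which also leaves no replicate to leave out. Rsrp1 was the 1 member past 2-fold over all cells in 6 of 8 alternatives, and 0 members were past it with the mean over cells (log2 ratio of Rsrp1 0.89) or after thinning to 1000 UMIs. The median log2 ratio of the members, 0.16, was 0.018 under the median of ratios and 0.103 with mitochondrial, ribosomal protein, haemoglobin and member genes left out of the total. Within strata the median of 0.190 was 0.113 with strata of the mitochondrial share only and 0.128 with strata of the ribosomal protein share only, which were added after seeing the data. Srsf2, below 0 over all cells, was 0.155 within strata of depth and mitochondrial share, a turn outside the counts of signs below. With the same strata weighted by WT cells Srsf2 was 0.024, and with strata of depth only it was 0.033. The 4 of 80 pairs of member and class past 2-fold were 3 to 5 under 11 alternatives, a gate without erythroid markers, added after seeing the data, included. Of all genes in a class, 4.59% to 7.21% were at least 2-fold higher in the reported setting. Signs turned in 5 of 64 values over all cells and 35 of 880 within classes. Of these, 2 and 27 had an interval that included 0 in the reported value, and the other 3 and 8 are given here. With the mean over cells, Malat1 and Neat1 in cholangiocyte-like cells were -0.226 and -0.239. After thinning, Srsf2 and Clk4 over all cells were 0.014 and -0.011, and Neat1 in cholangiocyte-like cells was -0.058. Under the median of ratios, Clk4 over all cells was -0.068, Clk1 in T-like cells -0.014 and Srsf5 in macrophage-like cells -0.0097. Neat1 in cholangiocyte-like cells was -0.042 without the 5 richest cells of each library and -0.281 with a gate of 4 markers and a margin of 3, where Son in NK or innate lymphoid-like cells was -0.124. The cause was not tested. Rsrp1 was above 0 in 110 of 110 class values (0.09 to 1.95). Depth limited Clk4 most, with 40 UMIs in KO cholangiocyte-like cells.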
